A study of Homo sapiens with 14 samples.

Results

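The data described here came from a pulldown of small RNA with an antibody against N7-methylguanosine (m7G), set against the RNA that went into it. RNA of A549 cells, an established human lung adenocarcinoma line, was decapped and denatured by heat, bound by the antibody and released with free 7-methyl-GTP (IP, n = 5), and an aliquot of the same decapped RNA served as the background (Input, n = 5). All 10 libraries were from untreated, unmodified cells, and the 4 other libraries of the series, from a chemical test for m7G, were not used here. The members are the mature miRNAs with 10 or more counts in at least 5 of the 10 libraries, which 670 of the 2588 table entries met. Of the 1918 entries below that minimum, 885 had 0 counts in every library. Of the 670, 25 reached the minimum only through Input and 3 only through IP. The 86 entries with exactly 5 libraries at the minimum had median counts of 6 to 44.5, and the 60 entries with 4 such libraries, which were left out, had median counts of 0 to 9.

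m7G is a guanine that carries a methyl group and a positive charge. It is best known from the cap of messenger RNA, which is why the RNA was decapped first, and from transfer RNA, where METTL1 with WDR4 places it inside the chain. A miRNA hairpin gives a 5p and a 3p arm, and bases 2 to 8 of the loaded arm, the seed, choose its targets, so arms and seed families are the natural groups in which to read a pulldown of miRNAs. The comparison asked which miRNAs were higher or lower after the pulldown relative to the median miRNA, which is not the same as their share of the library. It measures how antibody-bound RNA differed from Input and does not by itself locate a modified base.

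Table totals were 7097379 to 14874685 counts in Input and 2854811 to 6452759 in IP. Of 7 epithelial markers 6 were members, with a summed level of 382804 to 463752 CPM (counts scaled to the library total) in Input and 47097 to 63284 in IP. Nearly all of it was miR-21-5p, so the sum says little of the other markers. In Input, miR-31-5p was at 793 to 1386 CPM, miR-200b-3p at 258 to 850 and miR-200c-3p at 55.4 to 88.2. There miR-200a-3p was at 13.7 to 52.8 CPM and miR-429 at 2.80 to 13.4, and miR-141-3p was at 0.567 CPM or less in every library. Other cell types were represented by 15 markers, of which 5 were members, with summed levels of 631 to 1012 CPM in Input and 439 to 1301 in IP. Most of this was miR-126-3p, at 316 to 515 CPM in Input and 292 to 1103 in IP, and miR-9-5p, at 301.4 to 491.5 and 117 to 145. The liver marker miR-122-5p was at 0 in every library, which allows a share of up to 0.000105% in the smallest library, for counting error only. The part of other cell types in the results was not tested. The first principal component held 57.1% of the variance and separated IP from Input, and the second, with 15.3%, separated replicates 1 to 3 from replicates 4 and 5 in both groups. The labels give no reason for that split, so values within each set are given for the named miRNAs that differed most between the sets and for the composition measures that passed their test.

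The miRNAs at both ends of the ranking are shown first because their base composition differed. Each sequence is the RefSeq mature miRNA (GRCh38), written 5′ to 3′ with the seed in capitals. The 5 highest-ranked enriched miRNAs by the naming rule were these.
miR-877-5p: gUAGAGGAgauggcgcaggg
miR-3177-3p: uGCACGGCacuggggacacgu
miR-1275: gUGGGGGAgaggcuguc
miR-193b-5p: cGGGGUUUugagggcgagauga
miR-23b-5p: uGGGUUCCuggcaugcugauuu
These 5 held 7 to 11 guanines each. The 5 highest-ranked depleted miRNAs that had a sequence held 4 to 8.
miR-381-3p: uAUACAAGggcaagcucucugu
miR-34a-5p: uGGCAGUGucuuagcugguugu
miR-582-3p: uAACUGGUugaacaacugaacc
miR-30e-5p: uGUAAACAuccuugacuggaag
miR-361-5p: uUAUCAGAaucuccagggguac
By GENCODE annotation of the same build, miR-877-5p lay at chr6:30584332-30584351 (+) in an intron of ABCF1 and miR-3177-3p at chr16:1735038-1735058 (+) in an intron of MAPK8IP3. miR-193b-5p lay at chr16:14303980-14304001 (+) in an intron of the non-coding host MIR193BHG, and miR-23b-5p at chr9:95085227-95085248 (+) in an intron of AOPEP. miR-1275, at chr6:34000018-34000034 (-), lay in no protein-coding or long non-coding gene. Of the depleted miRNAs, miR-381-3p lay at chr14:101045968-101045989 (+) in an intron of MEG9, miR-582-3p at chr5:59703630-59703651 (-) in an intron of PDE4D, miR-30e-5p at chr1:40754371-40754392 (+) in an intron of NFYC and miR-361-5p at chrX:85903681-85903702 (-) in an intron of CHM. miR-34a-5p, at chr1:9151735-9151756 (-), lay in an exon of its host MIR34AHG.

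By DESeq2's Wald test over the 670 miRNAs at an adjusted p under 0.05, 383 were called (57.2% of those tested). Of these 183 were enriched in IP (27.3%) and 200 depleted (29.9%). IP and Input values were fully apart for 284 miRNAs (42.4%), of which 279 were called. A normalized count is the count divided by the DESeq2 size factor of its library, and the log2 enrichment is IP minus Input on that scale. The median log2 enrichment over all members was 0.02, between -7.01 and 5.59. Scaling by total counts raised this median by 0.36 and gave 232 enriched and 164 depleted miRNAs (58.6% of calls enriched, against 47.8% in the main test), while scaling by totals without miR-21-5p lowered it by 0.36 and gave 139 and 241 (36.6%). Every direction below is therefore relative to the median miRNA, and changes near 0.36 in size depend on that choice. With replicates blocked by number, 11 of these calls were lost, and another 18 enriched and 39 depleted calls were made.

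The largest enrichment by the naming rule was that of miR-877-5p, which is spliced out of a short intron without the usual Drosha cut. Its normalized counts were 252.1, 276, 321, 702 and 524 in Input 1 to 5 and 2147, 3523, 4598, 4606 and 4840 in IP 1 to 5. The lowest IP library was above the highest Input library, and the log2 enrichment was 3.25 ± 0.34 (SE, DESeq2 adjusted p = 6.19e-20). miR-3177-3p had 287, 314, 264, 149 and 128 in Input and 1860, 2057, 2200, 1480 and 1351 in IP (log2 2.97 ± 0.30, DESeq2 adjusted p = 1.74e-22). In miR-1275 the counts were 210, 221.7, 290, 750 and 525 in Input against 1415, 1752, 2499, 4560 and 4865 in IP. Replicates 4 and 5 were the highest of their group on both sides for miR-1275, and the enrichment was alike in replicates 1 to 3 alone (2.93) and 4 and 5 alone (2.85). miR-193b-5p, the passenger arm of the miR-193b hairpin, rose from 1717, 1812, 1885, 1738 and 1192 to 10095, 11955, 16397, 11174 and 11756 (log2 2.88 ± 0.20, DESeq2 adjusted p = 6.24e-46). miR-23b-5p, from the same hairpin as the far more abundant miR-23b-3p, rose from 1843, 1167, 1437, 1120 and 1132 to 10741, 8456, 8126, 10768 and 9266 (log2 2.82 ± 0.20, DESeq2 adjusted p = 1.00e-44). The naming rule admitted only called miRNAs whose groups did not overlap, so the lack of overlap in all 5 was a condition, not a finding.

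The next 10 enriched miRNAs by the same rule had log2 enrichments of 2.28 to 2.71. They were miR-342-5p (2.71), miR-1247-5p (2.71), miR-664a-5p (2.70), miR-432-5p (2.68), miR-3182 (2.65), miR-3648 (2.55), miR-505-5p (2.49), miR-628-3p (2.47), miR-149-3p (2.47) and miR-760 (2.28). Their Input means ran from 31.8 for miR-3648 to 471 for miR-3182, so most were minor entries of the library. The sign was the same in both sets of replicates for each, but the size differed most for miR-1247-5p (2.06 in replicates 1 to 3 and 3.41 in 4 and 5), miR-628-3p (1.98 and 3.22), miR-505-5p (1.79 and 2.96), miR-432-5p (2.01 and 3.02), miR-149-3p (1.92 and 2.93) and miR-664a-5p (2.18 and 3.17). The counts of miR-3648 were even numbers in every library, as when each read is counted at 2 loci, and its standard error was 0.62. miR-149-3p held 13 guanines, and miR-3182 and miR-1247-5p held 5 each.

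At the other end, miR-381-3p, a member of the imprinted miRNA cluster on chromosome 14, had 6056, 4945, 5263, 8962 and 9487 normalized counts in Input and 129, 114, 198, 390 and 242 in IP. It fell by 5.01 ± 0.36 on the log2 scale (DESeq2 adjusted p = 1.12e-42). miR-34a-5p, a p53 target that restrains the cell cycle, had 588, 556, 461, 764 and 861 in Input and 36.9, 33.2, 12.6, 16.2 and 19.0 in IP (log2 -4.76 ± 0.33, DESeq2 adjusted p = 2.64e-45). With 8 guanines, miR-34a-5p had the count of several enriched miRNAs and was among the most depleted, at -4.26 in replicates 1 to 3 and -5.57 in 4 and 5. miR-582-3p went from 1399, 1632, 1477, 773 and 800 to 55.4, 89.8, 54.8, 37.5 and 31.7 (log2 -4.50 ± 0.35, DESeq2 adjusted p = 4.73e-37). miR-21-3p, the passenger arm of the most abundant hairpin, went from 2665, 2948, 2965, 2361 and 2649 to 168, 130, 96.9, 107.4 and 88.8 (log2 -4.52 ± 0.21, DESeq2 adjusted p = 4.46e-104). Both arms of miR-21 were thus depleted, the 5p arm with a log2 of -3.32 ± 0.19. miR-30b-5p had 434, 354, 361, 866 and 1076 in Input and 6.59, 6.15, 16.9, 34.5 and 35.5 in IP (log2 -4.94 ± 0.53). Groups that did not overlap were a condition of naming for the highest-ranked depleted miRNAs as well.

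The next 10 depleted miRNAs lay between -4.38 and -3.88. They were miR-30e-5p (-4.38), miR-361-5p (-4.26), miR-101-3p (-4.26), miR-455-5p (-4.19), miR-19b-3p (-4.16), miR-181a-3p (-4.12), miR-1296-5p (-4.04), miR-450a-5p (-3.90), miR-769-5p (-3.89) and miR-30a-5p (-3.88). The values in replicates 1 to 3 and in 4 and 5 differed most for miR-30e-5p (-5.01 and -3.57), miR-455-5p (-4.79 and -3.7) and miR-450a-5p (-3.48 and -4.53). Their Input means ran from 458 for miR-1296-5p to 120917 for miR-30a-5p. miR-101-3p, known for its targeting of the methyltransferase EZH2, held 4 guanines and fell from a mean of 7486 ± 982 to 391 ± 88.2 (SD, n = 5 each).

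**Figure D1:**
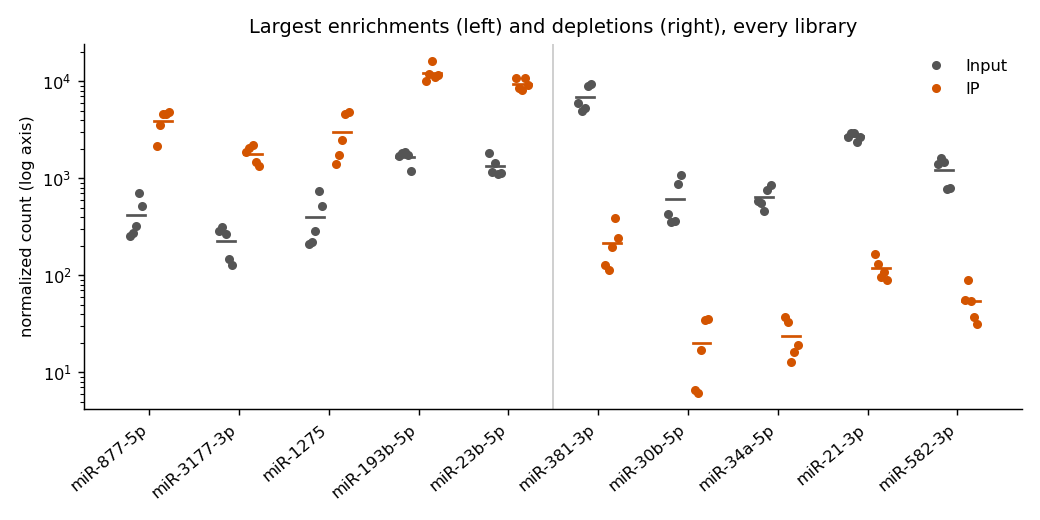
Normalized counts (log axis) of the 5 highest-ranked enriched miRNAs (left) and depleted miRNAs (right), with a point for each of the 5 Input and 5 IP libraries and a bar at the group mean. The naming rule required that the libraries of the groups stand apart, and the depleted miRNAs reach 6.15 normalized counts in IP.

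Enrichment ran with the number of guanines, mostly through miRNAs with 8 or more. A RefSeq sequence was found for 602 of the 670 members. The 171 enriched miRNAs with a sequence held a median of 9 guanines (mean 8.22) and the 176 depleted ones a median of 5 (mean 5.2), while the uncalled ones had a mean of 5.98. In steps of 2 guanines, the median log2 enrichment was -0.24 for 0 or 1 (16 miRNAs), -0.20 for 2 or 3 (77), -1.01 for 4 or 5 (160) and -0.38 for 6 or 7 (146). It was 0.93 for 8 or 9 (114), 1.52 for 10 or 11 (59), 2.17 for 12 or 13 (25) and 1.5 for 14 or 15 (5). The median was thus lowest at 4 or 5 guanines and above 0 in every step from 8 on, so the relation was not a straight line at its lower end. Of the 89 miRNAs with 10 or more guanines, 64 were enriched and 3 depleted, and of the 253 with 5 or fewer, 37 were enriched and 105 depleted. Spearman's rho between guanine number and log2 enrichment was 0.435 across these 602 miRNAs, which share libraries and often sequence and are not independent replicates.

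The relation was present within both sets of replicates. For 10 or more guanines the median log2 enrichment was 1.57 in replicates 1 to 3 alone and 1.66 in replicates 4 and 5 alone, and for 5 or fewer it was -0.73 and -0.88. Among the 282 miRNAs with a sequence and a mean normalized count of at least 100, 27 of the 30 with 10 or more guanines were enriched and 2 depleted, with rho at 0.444. The counts of enriched miRNAs with 5 or fewer guanines depended on the scaling, at 56 with total counts and 21 with totals without miR-21-5p.

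The other bases ran the opposite way and less closely, with rho at -0.236 for uracil, -0.221 for adenine and -0.206 for cytosine. Numbers of bases in a chain of like length are not free of each other. Runs of guanine went with enrichment as well. Of the 74 miRNAs whose longest run was 4 or more, 49 were enriched and 5 depleted (median log2 1.47), against 122 and 171 of the 528 with shorter runs (median -0.12). Among the exceptions were miR-361-5p, with a run of 4 and a log2 of -4.26, and miR-378c, with 10 guanines and -3.05.

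Position by position, the share of miRNAs with a guanine was higher in the enriched than in the depleted group at all 22 positions examined. The gap was 27.6 percentage points at position 5 (51.5% against 23.9%), 26.5 at position 4, 26.4 at position 3 and 21.7 at position 2, and it was between 6.10 and 21.0 points from position 6 on. Of the 63 miRNAs that began with guanine 26 were enriched and 6 depleted, with a median of 0.77, against medians of -0.09 to 0.03 for the other first bases. Enriched miRNAs held more guanines in total, so the values by position, run and first base in part restate that difference. None of them was compared at a fixed number of guanines.

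**Figure D2:**
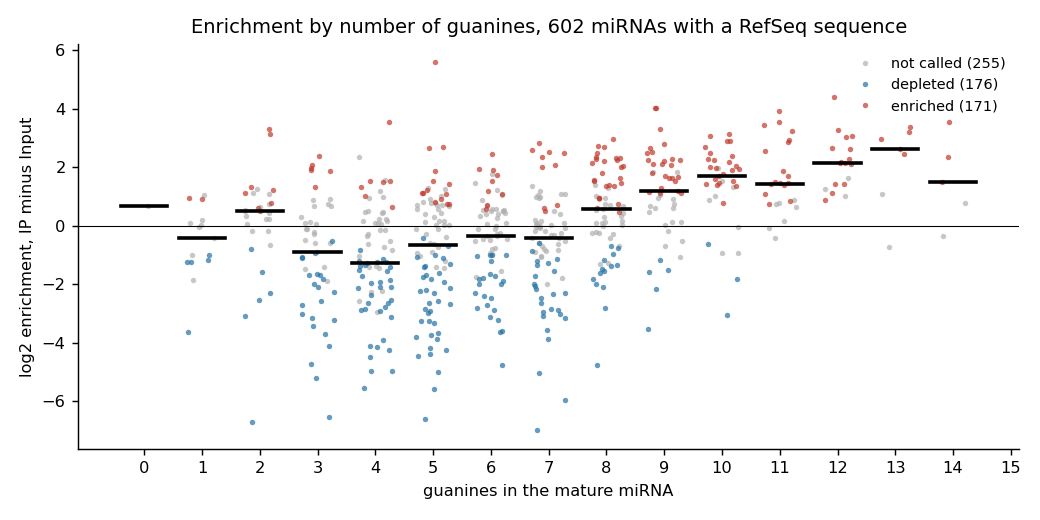
Log2 enrichment (IP minus Input) against the number of guanines in the mature sequence for the 602 miRNAs with a RefSeq sequence, coloured by call, with a bar at the median of each guanine number. Red points (171 enriched) prevail from 8 guanines on, and blue points (176 depleted) lie mostly at 3 to 7.

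Entries added late to the miRNA catalogue, taken as those numbered 1000 or above, stood higher than the older ones. Of 267 such entries 100 were enriched and 31 depleted (median log2 0.79), against 83 and 169 of 403 with lower numbers or a let-7 name (median -0.59). The late entries were few in counts, with 1.19% ± 0.0875 of the Input libraries and 1.55% ± 0.191 of the IP libraries (SD, n = 5 each). Both classes showed the guanine relation, with rho at 0.357 among 363 older and 0.420 among 239 late entries. Of 23 older entries with 10 or more guanines 18 were enriched and 1 depleted, and of 66 late ones 46 and 2.

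The arms of a hairpin come from the same transcript in equal number at first, so their ratio compares antibody-bound RNA within a precursor. It does not depend on the scaling between libraries. Both arms were members for 155 hairpins, and the log2 ratio of 5p to 3p counts was compared by limma. The ratio moved toward the 5p arm in 46 hairpins (29.7%) and toward the 3p arm in 25 (16.1%) at an adjusted p under 0.05. The ratios of the groups did not overlap for 56 hairpins (36.1%), and the more abundant arm was another in IP than in Input for 30. The arms shown next are those of hairpins with large changes in either direction, with the seed in capitals.
miR-193b-5p: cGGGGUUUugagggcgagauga
miR-193b-3p: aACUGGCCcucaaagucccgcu
miR-664a-5p: aCUGGCUAgggaaaaugauuggau
miR-664a-3p: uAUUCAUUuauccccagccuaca
miR-194-5p: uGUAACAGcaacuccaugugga
miR-194-3p: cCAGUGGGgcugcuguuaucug
miR-30a-5p: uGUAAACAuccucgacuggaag
miR-30a-3p: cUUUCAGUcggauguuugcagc
The 5p arm held 7 more guanines than the 3p arm in miR-193b and in miR-664a. In miR-194 the 3p arm held 3 more, and in miR-30a 1 more. miR-194-5p had loci on chr1 and chr11 and miR-194-3p on chr11 only, so the miR-194 ratio can mix precursors. miR-664a lay at chr1:220200549-220200571 (3p) and chr1:220200586-220200609 (5p) on the minus strand in an intron of RAB3GAP2, and miR-30a at chr6:71403595-71403616 (5p, -) in an intron of the non-coding LINC00472.

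miR-664a had the largest change toward 5p by the naming rule. The 5p arm rose from 49.7, 61.0, 49.0, 51.0 and 54.9 normalized counts in Input to 255, 281, 209, 464 and 516 in IP. The 3p arm fell from 115, 165, 122.5, 347 and 302 to 10.6, 17.2, 37.9, 5.07 and 16.5, so the larger arm was 3p in every Input library and 5p in every IP library. The log2 ratio changed by 6.28 ± 0.68 (limma adjusted p = 7.46e-05). In miR-193b the change was 4.82 ± 0.75 (limma adjusted p = 0.000534), from a mean ratio of -1.25 to 3.57. Its 3p arm had 3597, 3259, 2374, 6331 and 5238 in Input and 249, 591, 738, 2761 and 3700 in IP. That arm's own depletion (log2 -1.37, DESeq2 adjusted p = 0.0394) was larger in replicates 1 to 3, and the call was lost without IP 1, IP 2, IP 3, Input 4 or Input 5 (log2 -1.10, -1.18, -1.21, -1.17 and -1.28). miR-200a (4.51 ± 1.04), let-7e (4.47 ± 0.61) and miR-654 (4.27 ± 0.28) followed. The 3p arm of miR-200a was at 0 to 8.06 CPM in IP, against 13.7 to 52.8 in Input. The miR-200a ratio in IP thus rests on few counts of that arm, and the size of its change is uncertain.

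Toward 3p the largest change was that of miR-30b, at -6.50 ± 0.78 (limma adjusted p = 0.000107). miR-194-5p fell from 2758, 3161, 3566, 8593 and 10041 to 393, 281, 719, 1336 and 961. miR-194-3p rose from 1900, 1732, 2295, 2130 and 1886 to 8491, 6676, 6866, 9459 and 8682, and the ratio changed by -4.94 ± 0.51 (limma adjusted p = 7.40e-05). The arms were thus nearly equal in Input 1 to 3, with log2 ratios of 0.54 to 0.87, and far apart in IP, with ratios of -4.57 to -2.82. miR-30a-5p had 140941, 122962, 124934, 99301 and 116445 in Input against 6687, 8295, 7002, 10403 and 8784 in IP. miR-30a-3p rose from 5783, 6411, 6389, 5306 and 6434 to 11256, 10739, 8471, 16708 and 16815, so that the minor arm of Input was the larger arm in every IP library. The ratio change was -4.92 ± 0.23 for miR-30a (limma adjusted p = 2.22e-07), -4.53 ± 0.24 for miR-30e and -4.50 ± 0.91 for miR-409. miR-409-3p itself was not called (log2 0.59, DESeq2 adjusted p = 0.138) but was called with replicates blocked (0.59, adjusted p = 8.87e-05), and miR-30e-3p was not called (0.16 ± 0.20). All 10 named hairpins stayed called in replicates 1 to 3 alone and in replicates 4 and 5 alone, with the same sign.

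The 2 arms were called in opposite directions in 21 hairpins, with the 5p arm enriched in 17 and the 3p arm in 4. Both arms were enriched in 14 hairpins and both depleted in 25. Guanine number separated the arms of many of these. Among 138 hairpins with both sequences, the median change of the log2 ratio was 1.5 where 5p held more guanines (73 hairpins, 35 toward 5p and 3 toward 3p). It was -0.58 where 3p held more (50 hairpins, 6 toward 5p and 16 toward 3p) and -0.81 where they were equal (15 hairpins, 0 and 3). Of the 60 called hairpins with unequal arms 51 moved toward the arm with more guanines, and of the 19 with oppositely called arms 18 did. Where the 5p arm had 5 or more guanines beyond the 3p arm, 38 of 40 hairpins had a positive change, with 23 called toward 5p and 0 toward 3p. Where the 3p arm had 5 or more beyond the 5p arm, 9 of 12 had a negative change, with 5 called toward 3p and 2 toward 5p. Spearman's rho between the guanine difference and the ratio change was 0.510 across the 138 hairpins. In replicates 1 to 3 alone 42 called hairpins moved toward the arm with more guanines and 8 away from it, and in replicates 4 and 5 alone 51 and 12.

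**Figure D3:**
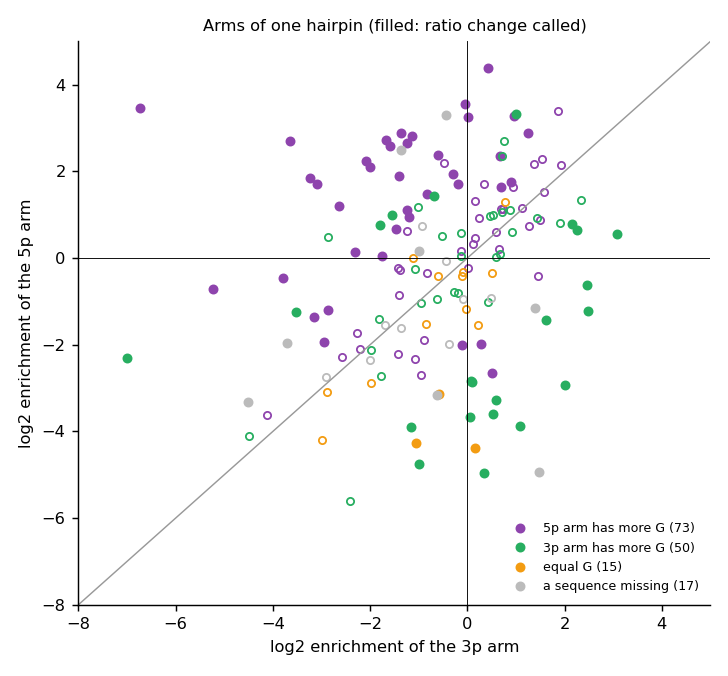
Log2 enrichment of the 5p arm against that of the 3p arm for 155 hairpins, coloured by which arm holds more guanines, with filled points where limma called the change of the arm ratio and a line where both arms are equal. Hairpins with more guanines in 5p (73) lie mostly above the line, and many of those with more in 3p (50) lie below it.

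By name rather than hairpin, 82 of 256 members named 5p were enriched (32.03%) and 86 depleted (33.59%). Of 274 named 3p, 54 were enriched (19.71%) and 87 depleted (31.75%). The shares over all 670 members were 27.3% enriched and 29.9% depleted. Of the 140 without an arm in their name 47 were enriched (33.6%) and 27 depleted (19.3%).

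The let-7 family, which represses RAS and HMGA2, shows how members with a shared seed parted. The 9 members named let-7 or miR-98 are printed in the order of their log2 enrichment.
let-7e-5p: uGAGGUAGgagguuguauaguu
let-7b-5p: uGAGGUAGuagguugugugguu
let-7c-5p: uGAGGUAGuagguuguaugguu
let-7a-5p: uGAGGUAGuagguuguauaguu
miR-98-5p: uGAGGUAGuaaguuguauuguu
let-7d-5p: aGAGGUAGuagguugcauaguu
let-7f-5p: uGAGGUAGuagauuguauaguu
let-7i-5p: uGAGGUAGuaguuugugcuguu
let-7g-5p: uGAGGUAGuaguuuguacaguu
All share the seed with its 4 guanines. Outside it, let-7b-5p held 6 guanines, let-7e-5p and let-7c-5p 5, let-7a-5p, let-7d-5p and let-7i-5p 4, and let-7f-5p, let-7g-5p and miR-98-5p 3. let-7e-5p had 46584, 45450, 42510, 45017 and 42254 normalized counts in Input and 140149, 172736, 171958, 267293 and 300814 in IP. Every IP library was above every Input library, most in replicates 4 and 5, and the enrichment was 2.25 ± 0.23 (DESeq2 adjusted p = 1.49e-20). The other called members were let-7b-5p (1.76 ± 0.20), let-7c-5p (1.16 ± 0.15) and let-7a-5p (0.95 ± 0.15).

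The remaining 5 members were not called, with miR-98-5p at 0.21, let-7d-5p at 0.16, let-7f-5p at 0.01, let-7i-5p at -0.22 and let-7g-5p at -0.30. let-7f-5p had 280111, 259863, 254200, 215532 and 241520 in Input and 339446, 375872, 291949, 123214 and 131606 in IP. In IP 1 to 3 it lay above Input and in IP 4 and 5 below, so its log2 was 0.30 in replicates 1 to 3 alone, where it was called enriched (DESeq2 adjusted p = 0.0365), and -0.88 in replicates 4 and 5 alone, where it was called depleted. let-7i-5p and let-7g-5p were also lower in replicates 4 and 5 alone, at -0.68 and -0.91, and both were called depleted there. With a term for the sets in the fit, let-7i-5p was called depleted (-0.32, DESeq2 adjusted p = 0.036). With totals without miR-21-5p as the scale, 4 of the 9 members were above 0, and with total counts all 9.

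Ratios between members do not depend on the scale. let-7a-5p and let-7f-5p differ by G12A (the base of the first, its position from the 5′ end, the base of the second), and the log2 ratio of their counts was 0.54 to 0.69 in Input and 1.11 to 2.50 in IP. let-7e-5p and let-7a-5p differ by G9U, with ratios of -3.27 to -2.89 in Input and -2.58 to -1.25 in IP, and let-7b-5p and let-7c-5p by G17A, with 2.60 to 3.04 and 3.18 to 3.86. Groups did not overlap in these 3 pairs. For let-7c-5p and let-7a-5p, which differ by G19A, the ratios did overlap, at -6.25 to -6.15 and -6.16 to -5.85. Members so alike can receive each other's reads when 1 mismatch is allowed. Over all members with a common seed and unequal guanine numbers there were 117 pairs from 35 seeds, and the member with more guanines had the higher log2 enrichment in 81. In the 12 pairs from 2 seeds that were of 1 length and differed by 1 or 2 bases, it did so in all 12, most of them pairs within let-7.

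Guanine number did not separate the members of miR-99/100, which are thought to act on mTOR and share the following seed.
miR-99b-5p: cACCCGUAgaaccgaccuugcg
miR-100-5p: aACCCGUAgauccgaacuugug
miR-99a-5p: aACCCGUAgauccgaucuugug
Each held 5 guanines. miR-99b-5p rose from 232072, 245489, 271019, 281580 and 280808 to 798615, 897002, 816234, 516073 and 508681 (log2 1.43 ± 0.21, DESeq2 adjusted p = 6.33e-11). miR-100-5p had 666602, 847949, 768204, 805873 and 806715 in Input and 977628, 853508, 1033469, 1686523 and 1949378 in IP (0.74 ± 0.26, DESeq2 adjusted p = 0.00916), a call lost with totals without miR-21-5p (0.36). The enrichment of miR-99b-5p was larger in replicates 1 to 3 (1.71 against 0.83) and that of miR-100-5p in replicates 4 and 5 (1.14 against 0.29). miR-99a-5p, which differs from miR-100-5p by A16U, fell from 24208, 24367, 24214, 24053 and 24851 to 6641, 4947, 6058, 10658 and 11544 (-1.61 ± 0.25, DESeq2 adjusted p = 1.47e-09). The log2 ratio of miR-100-5p to miR-99a-5p was 4.78 to 5.12 in Input and 7.20 to 7.43 in IP.

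Counts summed over the 522 seeds with a sequence gave 137 enriched seeds (26.2%) and 155 depleted ones (29.7%). Of 53 seeds with more than 1 member, 4 had members called in both directions, 10 had every member enriched, 9 had every member depleted and 7 had none called. For the 11 members with the let-7 seed, 5 of which were enriched and 0 depleted, the sum did not pass (0.42 ± 0.20, DESeq2 adjusted p = 0.0596).

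Several families were depleted in most or all members. The miR-17 seed, known for driving the G1 to S transition, had 5 of 6 members depleted and a summed log2 of -2.51 ± 0.24, from -3.59 for miR-106b-5p to -0.89 for miR-20b-5p, which was not called. With replicates blocked miR-20b-5p was called (-2.33, adjusted p = 0.0104). The 5p arms of miR-30, regulators of epithelial identity, were all 5 depleted, from -4.94 for miR-30b-5p to -0.94 for miR-30d-5p. Of their 6 3p arms 4 were enriched and 0 depleted. All 4 miR-181 5p members were depleted, from -1.33 for miR-181d-5p to miR-181c-5p, which had 3 or fewer counts in every IP library and was at least 4.29-fold lower. The 3 members with the miR-378 seed were depleted, from -1.48 for miR-378i to -3.05 for miR-378c. The call for miR-378i, at a mean of 18.4 in Input, was lost without IP 2, IP 4, IP 5, Input 2, Input 3, Input 4 or Input 5 (log2 -1.33, -1.44, -1.20, -1.39, -1.30, -1.55 and -1.54).

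miR-192-5p and miR-215-5p, p53-linked miRNAs of gut and kidney epithelium, were at -2.77 ± 0.10 and -2.66 ± 0.24. In the miR-200 seed, which represses ZEB1, miR-200b-3p (-2.64) and miR-429 (-2.88) were depleted, and miR-200c-3p was at -0.05 ± 0.25, with 0.31 in replicates 1 to 3 and -0.77 in replicates 4 and 5. In the miR-29 seed, which targets collagens, miR-29a-3p was at -2.55 ± 0.37. miR-29c-3p, with a mean of 22.5 in Input, was at -1.42 ± 1.01 and not called, but it was called without IP 1 (-3.36) and with replicates blocked (-3.05, adjusted p = 0.00999).

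Other families were enriched. All 5 members named miR-320 were enriched, from 1.49 for miR-320a, whose precursor also forms without Drosha, to 2.26 ± 0.14 for miR-320d. miR-4429, with the same seed, was at 1.66. Their summed share was 0.705% ± 0.118 in Input and 2.63% ± 1.14 in IP (SD, n = 5 each). The IP libraries fell apart by set, at 3.30, 3.40 and 3.68% in IP 1 to 3 and 1.41 and 1.37% in IP 4 and 5, and all 5 were above the Input libraries, at 0.512 to 0.804%. The miR-320 members with a sequence held 8 or 9 guanines. miR-196a-5p (2.05 ± 0.34) and miR-196b-5p (0.96 ± 0.25), which target HOX genes, were both enriched and held 8.

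Some families split. In the miR-25/92 seed 2 members were enriched, miR-92b-3p most at 1.49 ± 0.15, and miR-32-5p was depleted at -4.74 ± 0.71 from a mean of 54.0 normalized counts to 1.89. miR-182-5p (1.51) and miR-183-5p (1.11) were enriched and miR-96-5p depleted (-1.28), although all 3 come from a single transcript. In replicates 1 to 3 alone the call for miR-96-5p was lost (-1.0). miR-222-3p was enriched (0.59 ± 0.21, adjusted p = 0.0114 by DESeq2) and miR-221-3p depleted (-2.0 ± 0.30), each with 6 guanines. The call for miR-222-3p was lost without Input 1 (0.52) and with totals without miR-21-5p (0.21). In the miR-15/16 seed 1 of 5 members was called, miR-15b-5p at -1.35, and miR-195-5p at 1.29 ± 0.80 was called only without IP 1 (1.59). Among the 3p arms of let-7 that share a seed, let-7b-3p was enriched (0.90) and let-7a-3p depleted (-1.19), each with 1 guanine. The call for let-7b-3p was lost with totals without miR-21-5p (0.54).

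**Figure D4:**
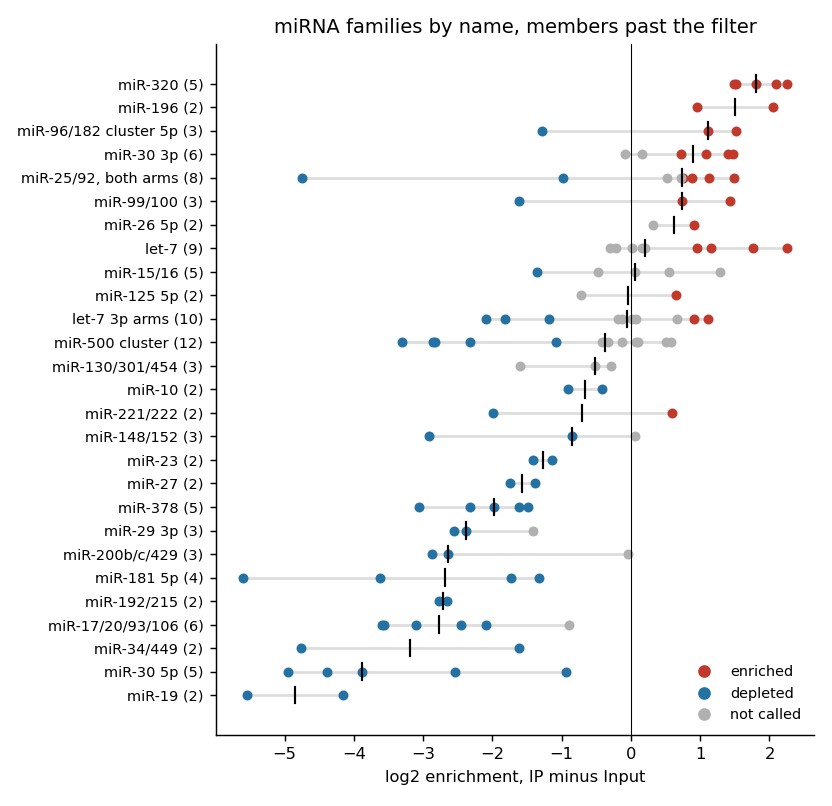
Log2 enrichment (IP minus Input) of the members of 27 families defined by name, with a point per member coloured by call, a grey line over the range and a black bar at the median. Families with depleted members only, such as miR-30 5p and miR-19, lie at the bottom, and the miR-320 members (1.49 to 2.26) at the top.

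Neighbouring miRNAs of 1 strand, less than 10 kb apart, formed 36 clusters with 3 or more members, and 22 of these held members called in both directions. Over all 670 members 27.3% were called enriched and 29.9% depleted, so mixed clusters are common without any trait of a cluster. In the cluster at chr14:101022066-101066801 (+), the imprinted region of miR-381, 9 of 38 members were enriched (23.7%), 16 depleted (42.1%) and 13 not called. Its enriched share was near that of all members. In the miR-17-92 cluster at chr13:91350605-91351391 (+), which MYC activates, miR-92a-1-5p (1.19) and miR-92a-3p (0.76) were enriched and 6 of 9 members depleted. There miR-19b-3p was at -4.16, and miR-19a-3p, with 3 or fewer counts in every IP library, was at least 20.5-fold lower.

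The most abundant miRNA of Input took a far smaller part of IP. This was miR-21-5p, which represses PDCD4. It held 40.4, 46.3, 45.8, 38.04 and 41.0% of the counts in Input and 4.64, 4.78, 5.10, 6.27 and 6.17% in IP. The difference of the means was -36.9 percentage points (exact permutation test, both sides, p = 0.00794, the smallest that 5 against 5 allows, adjusted p = 0.0198 over 5 measures). Within replicates 1 to 3 it was -39.3 and within replicates 4 and 5 -33.3. With replicates paired, where 0.0625 is the smallest p that 5 sign flips allow, it did not pass (exact permutation test, adjusted p = 0.0781). By its mean, miR-100-5p led IP with 20.1% ± 6.95 against 9.58% ± 1.10 in Input (SD, n = 5 each). It held 15.2, 13.1 and 17.2% in IP 1 to 3 and 25.8 and 29.0% in IP 4 and 5. In IP 2, miR-99b-5p (13.8%) and let-7a-5p (13.2%) were larger. Of the 10 largest entries of IP 7 were also among those of Input, and let-7e-5p, miR-320a and let-7b-5p had taken the places of miR-27b-3p, miR-10a-5p and miR-30a-5p.

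Members called enriched held 27.8% ± 2.03 of the counts in Input and 70.9% ± 3.31 in IP, and members called depleted 58.1% ± 2.05 and 12.5% ± 1.52. Both sets were called from these same libraries, so the direction of each change in share was fixed by the choice. miR-27b-3p (log2 -1.75 ± 0.36) was among the members called depleted. So was miR-10a-5p (-0.42 ± 0.18, DESeq2 adjusted p = 0.0369), whose call was lost without IP 2, IP 4, IP 5, Input 2 or Input 3 (-0.45, -0.33, -0.36, -0.40 and -0.40). It was also lost with total counts, where the log2 was -0.07 (DESeq2 adjusted p = 0.748), with TMM scaling (-0.40), with edgeR (-0.40) and with no count filter (-0.46). The uncalled abundant miRNAs with the smallest errors were miR-330-3p (-0.09 ± 0.11), miR-484 (-0.13 ± 0.14), miR-98-5p, miR-3615 (0.03 ± 0.18) and miR-27b-5p (0.05 ± 0.19).

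The 10 largest entries together held 78.6% ± 2.09 in Input and 76.2% ± 2.35 in IP (exact permutation test, adjusted p = 0.169). The number of entries that made up 90% of the counts was 26.8 ± 3.96 and 24.8 ± 1.48 (exact permutation test, adjusted p = 0.397). With miR-21-5p left out, the 10 largest held 11.2 percentage points more in IP than in Input and 14.6 fewer entries made up 90% (exact permutation test, adjusted p = 0.00794 for each). At the depth of the smallest library, 968 ± 51.3 entries would be detected in Input and 852 ± 77.8 in IP (exact permutation test, adjusted p = 0.0794). This difference of -116 passed without IP 4 (-138). It also passed without IP 3 (-145), the smallest library. There the depth is that of the smallest library left, so -145 and -116 are not at a common depth. The adjusted p was 0.0198 by the exact permutation test in each. With miR-21-5p left out the difference was -199 (exact permutation test, adjusted p = 0.00794).

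The 5p arms held 84.7% ± 2.32 of the counts of arm-named entries in Input and 80.0% ± 0.966 in IP (difference -4.71 points, exact permutation test, adjusted p = 0.0198). miR-21-5p is itself a 5p arm, and without it the share was 5.5 points higher in IP (exact permutation test, adjusted p = 0.00794). With replicates paired the difference of -4.71 could not pass either (exact permutation test, adjusted p = 0.0781, smallest p 0.0625). Within the sets of replicates it was -6.27 and -2.37. The mean number of guanines per count was 5.56 ± 0.0860 in Input and 6.08 ± 0.158 in IP over entries with a sequence. Without miR-21-5p it was 6.0 ± 0.174 and 6.15 ± 0.159, with Input 6.19, 6.09, 6.09, 5.80 and 5.83 and IP 6.25, 6.31, 6.22, 5.97 and 5.98. The ranges of the groups overlapped, and each IP library was above the Input library of its number.

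**Figure D5:**
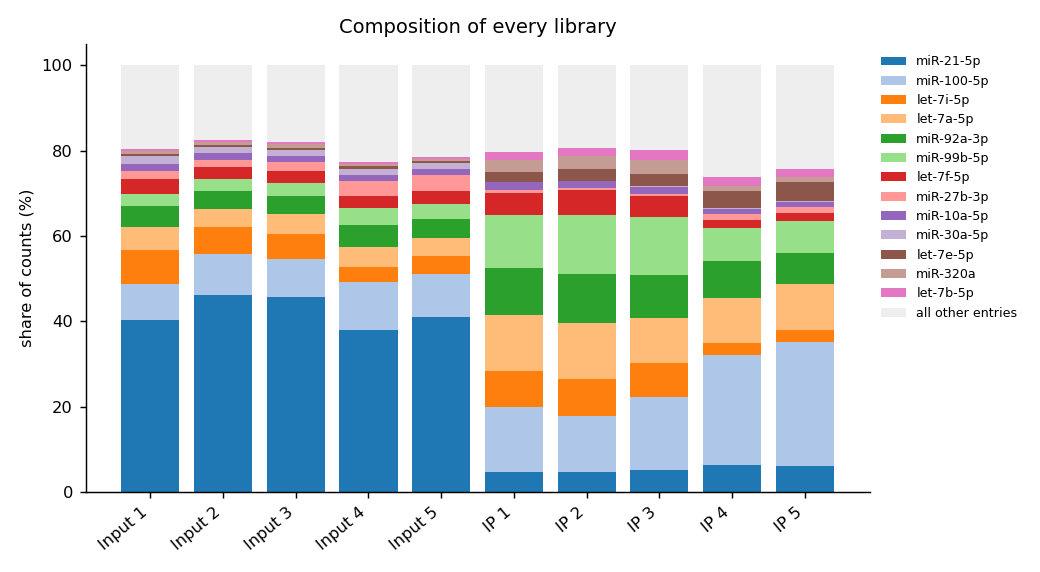
Share of counts (%) of the entries that were among the 10 largest in Input or in IP, stacked for each of the 10 libraries, with all other entries in grey. The share of miR-21-5p is 38.04 to 46.3% in Input and 4.64 to 6.27% in IP, where miR-100-5p, let-7a-5p, miR-92a-3p and miR-99b-5p fill most of its place.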

How the data were processed

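A549 RNA was decapped, denatured by heat and bound by an m7G antibody (IP), with an aliquot of the same RNA as Input (n = 5 each, 50-base single-end reads). The authors trimmed reads with Trimmomatic, aligned them to GRCh38 and deposited raw counts of miRBase mature miRNAs from featureCounts. The study's methods name STAR with at most 1 mismatch, and the submitters' processing notes name Bowtie2, so the aligner is not settled here. Reads that match several members of a family can be counted for each of them. Of the 670 members, 27 had counts that shared a divisor above 1 in all libraries.

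Columns were grouped by sample title. Entries with 10 or more counts in at least 5 libraries were tested with DESeq2 1.42.0 (Wald test, size factors, no covariates, Benjamini-Hochberg adjustment). Seeds (bases 2 to 8) were tested on summed counts in the same way. Arm ratios, log2((5p + 0.5)/(3p + 0.5)), were tested with limma 3.58.1, and composition measures by exact permutation of libraries, both sides. Alternatives used edgeR 4.0.16 (quasi-likelihood test), other scalings, filters and left-out libraries. Sequences were from RefSeq (GRCh38.p14) and matched 602 of 670 members. On simulated data DESeq2 recovered 95.0% of 200 miRNAs changed by a log2 of 2 among 670, with 10 false calls, and limma 59.6% of 47 hairpins among 150, with 1.

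By the naming rule, each direction's 15 largest log2 enrichments were named among called miRNAs averaging 100 or more normalized counts whose groups did not overlap. The 10 largest Input entries, 5 uncalled miRNAs (averaging 1000 or more, smallest error), 5 hairpins per direction (both arms at 100 or more) and ends of families were also named. Members and lists were chosen with earlier results of these data known. Replicates of a group differed by more than counting error (chi-square per degree of freedom of 25.8 or more). That they came from separate cultures is not given in the sources used here, so p-values measure the spread between these samples, which may be technical. Input was an aliquot of the RNA of its IP. Each IP correlated with the Input of its number in deviations from the group means (0.146 to 0.387). Numbers were therefore taken as pairs in the replicate block and the paired permutation test, which were alternatives. The main tests left pairing out. Other numbers of the same set of replicates (1 to 3, or 4 and 5) correlated alike (0.0760 to 0.373), so the correlations do not tell numbers apart within a set.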

Additional observations from a re-analysis of the deposited data

Results flagged for a closer look

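Among 128 groups of 5 libraries examined (the named miRNAs, the arms of the named hairpins and the composition measures), 1 value stood apart from its group by Dixon's criterion, where chance flags about 1 group in 20. The normalized count of miR-193b-5p was 1192 in Input 5, and the other Input libraries lay between 1717 and 1885. The IP libraries, at 10095 or more, were all above it.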

How the results depend on the processing

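The 10 named hairpins kept their direction and call in all 146 alternative values, and 74 of the 97 named miRNAs kept theirs in every alternative. No miRNA of the main calls was called in the opposite direction under any of the alternatives tried. Besides total counts, total counts without miR-21-5p and left-out libraries, the alternatives were TMM scaling, edgeR's quasi-likelihood test, a replicate block, a term for the sets of replicates, no count filter, the count minimum in every library and either set alone. edgeR called 162 enriched and 180 depleted miRNAs.

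With the count minimum in every library, fewer entries were tested, with 116 depleted miRNAs, 37 enriched with 10 or more guanines, 58 depleted with 5 or fewer, 26 hairpins toward 5p, 13 toward 3p and 26 toward the arm with more guanines. Enriched miRNAs with 5 or fewer guanines numbered 56 with total counts and 21 with totals without miR-21-5p. Without miR-21-5p the composition differences were 11.2 points for the 10 largest entries, -14.6 entries for 90% of counts, -199 entries detected and 5.5 points for the 5p share. With the replicate block the exact test of composition cannot pass, as 5 sign flips allow no p below 0.0625. The share of miR-21-5p (-36.9) and the 5p share (-4.71) thus could not pass there. Over all 670 miRNAs the block kept 174 of 183 enriched and 198 of 200 depleted calls, called 237 depleted and moved the median log2 by -0.16. Among the named miRNAs it also called miR-409-3p, miR-20b-5p and miR-29c-3p and changed no other call. In replicates 1 to 3 alone (-39.3 and -6.27, with 0 for the entries of 90%) and 4 and 5 alone (-33.3 and -2.37) the exact test cannot pass, with smallest p-values of 0.1 and 0.333. Leaving out a library in turn gave -145 to -99.8 for the entries detected, with -145 at the other depth set without IP 3. It gave -0.17 to 0.19 for let-7f-5p, -0.075 to 0.080 for miR-3615, -0.069 to 0.15 for miR-27b-5p, -0.024 to 0.29 for let-7d-5p and -0.22 to 0.090 for miR-200c-3p.

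Uncalled miRNAs changed sign with total counts (let-7i-5p 0.15, let-7g-5p 0.051, miR-330-3p 0.25, miR-484 0.20, miR-200c-3p 0.29) and with totals without miR-21-5p (let-7f-5p -0.35, miR-98-5p -0.17, miR-3615 -0.34, miR-27b-5p -0.32, miR-30e-3p -0.21, let-7d-5p -0.21). They also did so in replicates 1 to 3 alone (miR-3615 -0.17, miR-30e-3p -0.19, miR-200c-3p 0.31), in 4 and 5 alone (let-7f-5p -0.88, miR-484 0.10, miR-27b-5p -0.33, miR-200a-5p 0.065, let-7d-5p -0.14) and with no filter (let-7f-5p -0.021, miR-3615 -0.0081). let-7f-5p was at -0.13 with the replicate block and with the term for the sets. Some passed the threshold under a scaling, with miR-330-3p (-0.46), miR-484 (-0.51), miR-200a-5p (-0.84) and let-7g-5p (-0.67) depleted with totals without miR-21-5p, and miR-98-5p (0.53), miR-3615 (0.38), miR-30e-3p (0.51) and miR-409-3p (0.88) enriched with total counts. The cause was not tested. Depth limits miRNAs near the minimum, and 9 depleted miRNAs had 3 or fewer counts in every IP library.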
